A study of Mus musculus with 6 samples.

Results

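The replication-dependent histone genes were examined in c-Kit-enriched mouse bone marrow. They were taken as every gene whose symbol starts with Hist1h, Hist2h, Hist3h or Hist4h, which gave 67 of the 32285 genes in the files. Of these, 6 encode linker histone H1, 18 encode H2A, 18 encode H2B, 12 encode H3 and 13 encode H4. Cells came from BALB/c mice at 10 weeks of age in 3 groups of 3 mice, and each of 3 pools held 1 mouse of every group, told apart by hashtag antibodies. The groups were non-tumor-bearing (NTB) mice, mice bearing 4T1 tumors and given vehicle (Veh), and mice bearing 4T1 tumors and given brequinar (BRQ). 4T1 is a mouse mammary carcinoma cell line, and brequinar inhibits dihydroorotate dehydrogenase, an enzyme of de novo pyrimidine synthesis. The design addresses how the tumor and the drug change expression in marrow progenitors, with NTB mice as the reference, and it holds no NTB mice given brequinar.

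Replication-dependent histones are the bulk histones that package newly made DNA, and cells make most of them during S phase, when DNA is copied. Core histones H2A, H2B, H3 and H4 form the nucleosome, and H1 binds the linker DNA between nucleosomes. Their genes lie in clusters, mostly lack introns and are transcribed under the control of NPAT. Unlike other mRNAs, their messages usually end at a short stem-loop that is bound by SLBP instead of a poly(A) tail, and they are degraded when DNA synthesis stops. Some of these genes also give longer, polyadenylated messages, which have been described in differentiated and non-dividing cells. The assay used here primes on poly(A) and counts unique molecular identifiers (UMIs) near the 3' end of messages. Its values are therefore the captured histone molecules and not the whole histone message pool, and which form of message gave the UMIs was not tested.

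In the GENCODE M21 annotation of GRCm38, 54 members lie on chromosome 13 (21715763 to 23934851), 10 on chromosome 3 (96219865 to 96270132), 2 on chromosome 11 (58948920 to 58956830) and 1, Hist4h4, on chromosome 6 (136801553 to 136804415). Only 5 members have a transcript with more than 1 exon, all of them H2B genes. A stem-loop of the histone form was found after the stop codon in 46 members, at 21 to 58 bases from it (median 31). The annotated 3' untranslated region (UTR) was 300 bases or longer in 22 members, shorter in 32 and not annotated in 13. A polyadenylation signal within the last 50 bases of the transcript was found in 17 members. These groups are called long-end, short-end and no annotated end from here on.

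The stem-loops are printed because they mark the end of the usual histone message and because the annotated messages of the most captured members differ in how far they run past it. Each window is given 5' to 3' on the gene's strand, with the stem-loop in capitals.
Hist1h2ap: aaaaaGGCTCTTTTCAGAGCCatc
Hist1h2ae: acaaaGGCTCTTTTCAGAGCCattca
Hist1h1e: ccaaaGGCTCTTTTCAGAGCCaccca
Hist1h1c: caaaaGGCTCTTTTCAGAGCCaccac
Hist1h3c: aaaaaGGCTCTTTTAAGAGCCaccta
Hist1h4d: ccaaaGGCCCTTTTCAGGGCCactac
Hist1h4h: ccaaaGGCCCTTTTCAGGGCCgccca
Hist1h4i: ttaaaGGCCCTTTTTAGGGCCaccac
Hist1h2ac: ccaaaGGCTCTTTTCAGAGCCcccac
They lie, in that order, on chromosome 13 at 21833026 to 21833049 (minus strand), 23570663 to 23570688 (minus), 23621777 to 23621802 (minus), 23739507 to 23739532 (plus), 23745042 to 23745067 (minus), 23581945 to 23581970 (plus), 23531453 to 23531478 (plus), 22040961 to 22040986 (minus) and 23683472 to 23683497 (minus). Of the 46 members with a stem-loop, 26 from H1, H2A, H2B and H3 shared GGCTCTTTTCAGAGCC, and 7 H4 genes shared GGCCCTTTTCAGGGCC. The annotated message ended 3 bases after the stem-loop in Hist1h2ap, 46 in Hist1h4h and 74 in Hist1h3c. It ran on for 151 bases in Hist1h2ae, 330 in Hist1h4i, 770 in Hist1h4d, 840 in Hist1h1c, 1153 in Hist1h1e and 2010 in Hist1h2ac. The long-end gene Hist1h2bc (chromosome 13, 23684199 to 23692908, plus strand) had 2 exons and a 3' UTR of 742 bases without a stem-loop, and Hist1h1b (chromosome 13, 21779883 to 21780625, minus strand) had no annotated 3' UTR.

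Histone genes often stand head to head around a shared promoter region. Here 13 such pairs were found with starts 176 to 660 bases apart, among them Hist1h2ac with Hist1h2bc, and Hist1h2ap with Hist1h2br at 236. All 67 members matched a RefSeq gene (assembly GRCm38.p6), and 61 had a promoter there, from 250 bases before to 50 after the start. TATAAA, searched on both strands, was in 35 of these 61 (57.4%) against 14.2% of 27025 promoters, and CCAAT was in 52 (85.2%) against 37.9%. CCAAT was in all 6 H1, 17 H2A, 16 H2B and 10 H3 promoters, and in 3 of the 12 H4 promoters. AAACACA, the letters of the H1 box, was in 9 (14.8%) against 7.1%, and 5 of those 9 were among the 6 H1 genes.

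The promoters of Hist1h1b and Hist1h1e are shown because these H1 genes moved in opposite directions in the comparisons that follow. The 250 bases before the start are given 5' to 3' on the gene's strand, with the motifs just named, or the reverse complement of one, in capitals, at chr13:21780626-21780875 (minus) for Hist1h1b and chr13:23622559-23622808 (minus) for Hist1h1e.
Hist1h1b: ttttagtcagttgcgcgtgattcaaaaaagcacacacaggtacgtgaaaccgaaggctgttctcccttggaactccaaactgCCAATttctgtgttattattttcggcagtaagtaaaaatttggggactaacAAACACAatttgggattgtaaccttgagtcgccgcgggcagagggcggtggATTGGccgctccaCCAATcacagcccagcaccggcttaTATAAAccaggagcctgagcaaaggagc
Hist1h1e: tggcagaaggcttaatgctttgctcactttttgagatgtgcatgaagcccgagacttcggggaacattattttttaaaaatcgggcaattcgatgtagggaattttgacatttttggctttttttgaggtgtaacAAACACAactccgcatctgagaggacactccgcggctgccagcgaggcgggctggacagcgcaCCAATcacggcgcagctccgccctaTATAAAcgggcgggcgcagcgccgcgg
Both held AAACACA, first base at -117 in Hist1h1b and -115 in Hist1h1e, a CCAAT at -53 and -52, and a TATAAA at -28 and -27, counted from the start. Hist1h1b held another CCAAT at -168 and one on the opposite strand at -66. A match is a match of letters only.

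The pools held 13750, 11441 and 14297 barcodes and 100700982 to 135564079 gene UMIs, and 80 to 90 barcodes of each pool also occurred in another. Granulocyte-monocyte progenitors (GMPs) were singlets with ln(1 + Ms4a3 per 10000 UMIs) above 3, and numbered 3916 (400 in NTB, 1401 in Veh, 2115 in BRQ, 88 to 1017 in a mouse). Summed per mouse they gave 998154 to 16074010 UMIs, and the NTB mice and Veh mouse 2 rested on the fewest cells (88 to 177). The study also chose GMPs by Ms4a3, but on scaled values adjusted for the cell cycle, so its cells need not be the same. Median UMIs per GMP were 10828.5 to 11581 in NTB, 14737 to 17966 in Veh and 12168.5 to 15795 in BRQ mice. All 14 neutrophil markers had UMIs in the GMPs, with a summed level of 46220 to 49680 CPM (UMI counts scaled to a common library size) in NTB, 33540 to 37310 in Veh and 26180 to 37600 in BRQ mice. The summed level of 11 HSC/MPP markers was 65.3 to 85.2 CPM in NTB, 65.0 to 72.2 in Veh and 122.7 to 147 in BRQ mice, and that of 10 monocyte markers 60.1 to 73.0, 55.99 to 69.6 and 101 to 153. The 12 basophil, mast and eosinophil markers summed to 123.2 to 179 CPM in NTB, 86.1 to 114 in Veh and 186 to 202 in BRQ mice, and the 8 dendritic cell markers to 16.03 to 37.07, 24.7 to 29.0 and 37.09 to 52.7. Of 9 B cell markers Ms4a1 and Fcer2a were at 0, and of 10 T and NK cell markers Cd3e, Cd3g, Trbc2 and Gzma were. The part of these differences in the histone values was not tested.

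In GMPs, 65 members had a UMI, all but Hist1h2bq and Hist1h2ba, and 52 passed the filter on low counts (5 H1, 12 H2A, 15 H2B, 9 H3 and 11 H4). A few genes held most of the captured molecules. Hist1h2ap took 21.2% of member UMIs on average over the 9 mice, Hist1h2ae 13.7%, Hist1h1b 11.4%, Hist1h1e 10.98% and Hist1h4d 4.59%. By type, H2A held the largest share of captured molecules, from 39.6% to 48.1% in a mouse, and H2B the smallest on average. These are counts of captured molecules, not divided by length, and so give no order of expression. Some genes share much of their sequence with other members, so that the counting could not place every read. Of 60-base windows, 7.1% were unique to the gene in Hist1h2ap, 11.8% in Hist1h2br and 14.8% in Hist1h4n, while all were in Hist1h1b, Hist1h1a and Hist2h2bb.

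**Figure D1:**
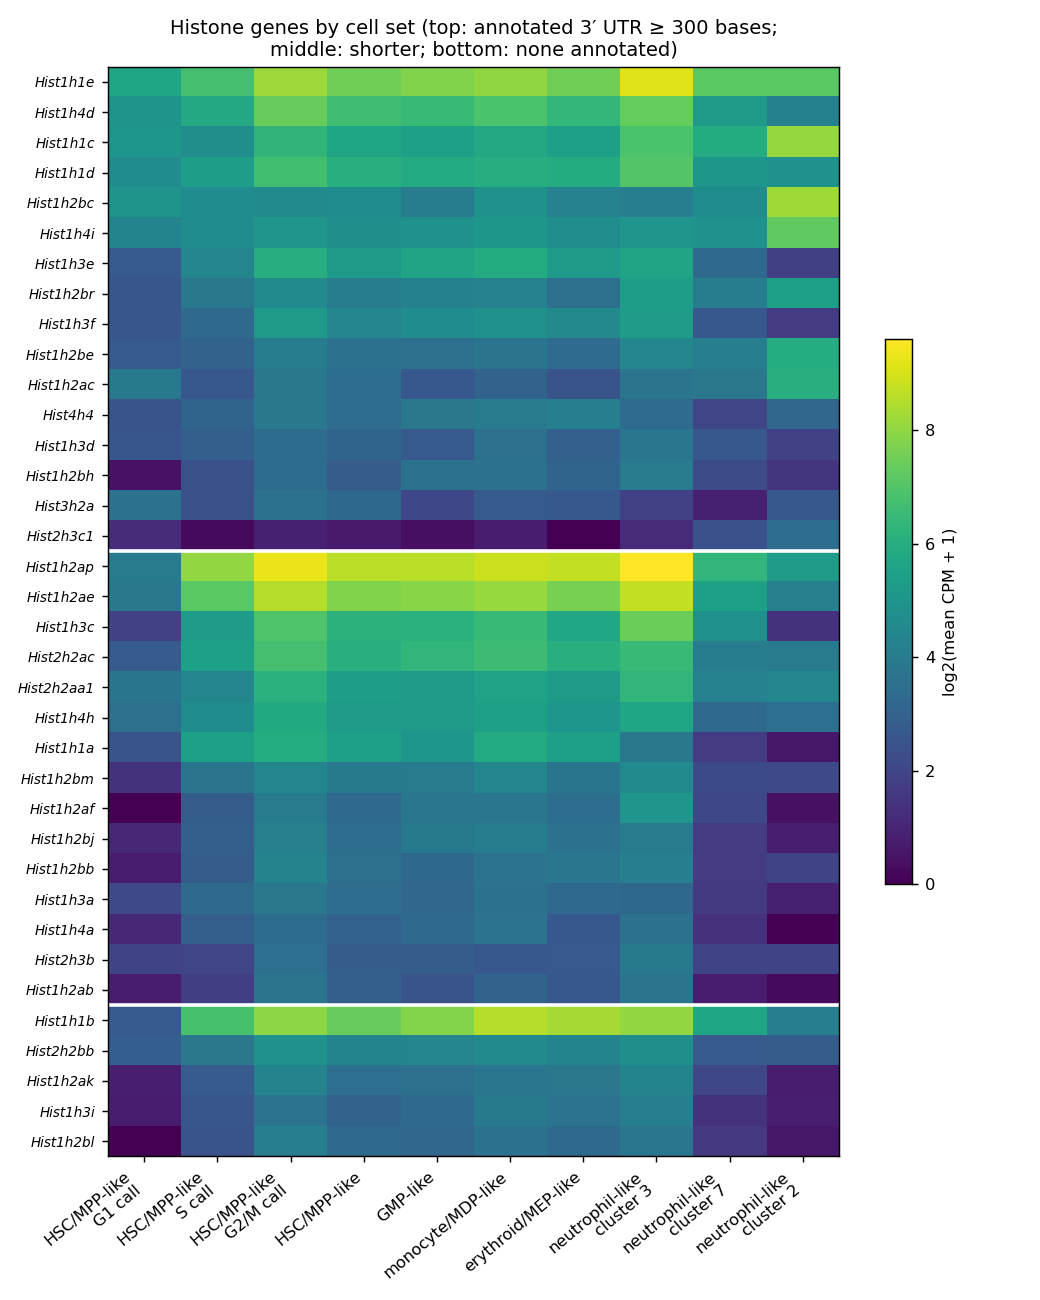
Level of the 36 members that reached 10 CPM in some cell set (rows, 16 long-end at the top, 15 short-end, 5 with no annotated end at the bottom) over cell sets (columns, with the phase calls of HSC/MPP-like cells first); colour is log2(mean CPM + 1) over mice. Hist1h2ap, Hist1h2ae and Hist1h1e were high in the progenitor classes, and in neutrophil cluster 2 the highest rows were Hist1h2bc and Hist1h1c, both long-end genes.

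The summed level of all members in GMPs overlapped between the groups. NTB mice had 1734, 1996 and 2047 CPM, Veh mice 1676, 1779 and 2198, and BRQ mice 1459, 1870 and 1685. The log2 difference was -0.04 for Veh against NTB, -0.17 for BRQ against Veh and -0.21 for BRQ against NTB. In that order, each was smaller than 0.24, 0.27 and 0.22, the SD of a difference between single mice of the groups compared. That SD is wider than the spread of the group means and takes no account of the pools. Within pools 1, 2 and 3, BRQ was below NTB by -0.25, -0.09 and -0.28, in all 3 pools, whereas BRQ differed from Veh by -0.20, 0.07 and -0.38 and Veh from NTB by -0.05, -0.17 and 0.10. No test was run on these 3 pairs. The values rest on trimmed-mean scaling factors of 1.049, 1.059 and 1.155 in BRQ mice and 0.921, 0.97 and 1.006 in NTB mice. Scaled by library size alone in place of trimmed means, the difference of BRQ from Veh was 0.02, while the median of all genes moved from 0.00 to 0.20. For BRQ against NTB the median of all genes moved from -0.003 to 0.16, and the within-pool differences are not given on that scale. With equal GMPs of clusters 0, 1 and 5, and so fewer cells, BRQ differed from Veh by 0.04.

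**Figure D2:**
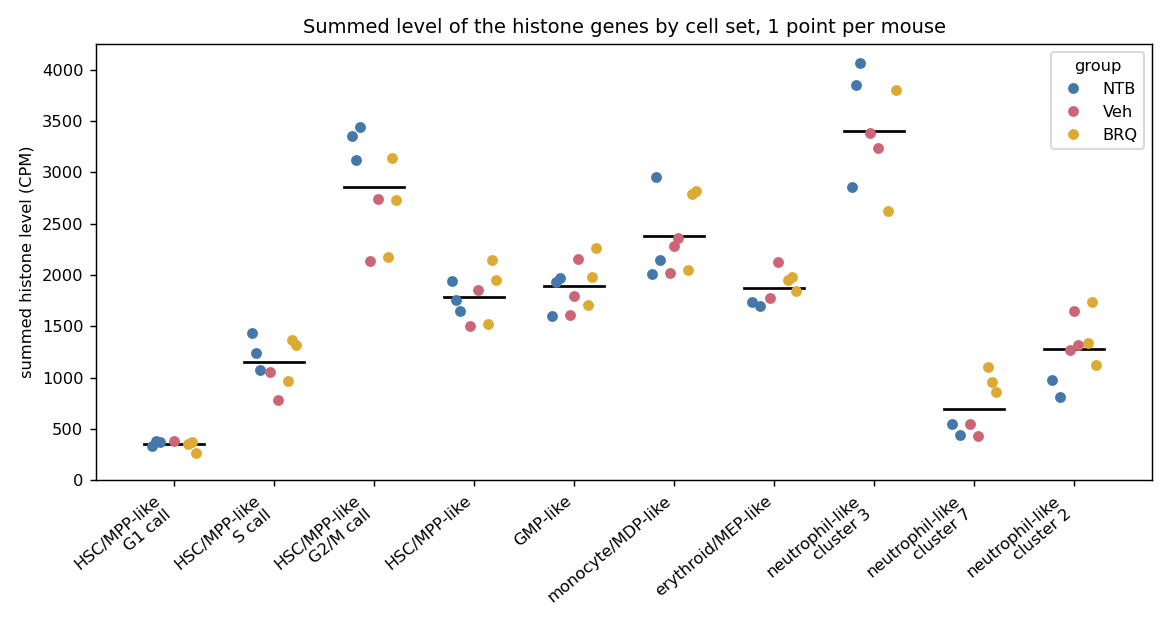
Summed level of all members (vertical axis, CPM by library size) in each cell set (horizontal axis, phase calls of HSC/MPP-like cells first), with 1 point per mouse coloured by group and a bar at the mean over mice. Neutrophil cluster 3, at a mean of 3400 CPM, stood highest, and HSC/MPP-like cells called G1, at 355 CPM, lowest.

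Tumor-bearing vehicle-treated mice had more Hist1h1b in their GMPs than NTB mice, while Hist1h4h and Hist1h1e fell. Among the 52 members tested, 1 rose and 2 fell at an adjusted p under 0.05 (edgeR quasi-likelihood test with Benjamini-Hochberg adjustment over all 10331 genes), against 11.3% of all genes called in this comparison. The median log2 fold change of the members was -0.10, against -0.01 over all genes, and 35 of 52 were below 0. The 2 groups did not overlap for 12 members, that is, for a smaller share than the 28.4% of all genes. With the pool as a block, 2 members rose (Hist1h3i joining Hist1h1b) and the same 2 fell, against 16.4% of all genes.

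Hist1h1b encodes the linker histone H1.5. It stood at 89.4, 146 and 150 CPM in NTB, 211, 223 and 261 in Veh and 215, 291 and 268 in BRQ animals. Every tumor-bearing mouse was above every NTB mouse. It rose by 0.80 on the log2 scale from NTB to Veh (SE 0.14, adjusted p = 0.000642, edgeR) and was higher by 0.96 in BRQ than in NTB (SE 0.14, adjusted p = 0.000231, edgeR). BRQ and Veh differed by 0.16 (SE 0.12, adjusted p = 0.450, edgeR), and those mice overlapped. The rise from NTB to Veh held with any mouse left out and under 13 of 14 other settings, and that from NTB to BRQ under all 14.

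Hist1h1e encodes H1.4 and was the other main linker histone captured. Its levels were 229, 246 and 237 CPM in NTB, 193, 197 and 174 in Veh and 174, 204 and 140 in BRQ mice. All NTB mice were above all tumor-bearing mice. The difference was -0.34 for Veh against NTB (SE 0.11, adjusted p = 0.0492, edgeR) and -0.47 for BRQ against NTB (SE 0.11, adjusted p = 0.0116, edgeR). The Veh call was a narrow one, kept under 7 of 14 other settings and with 2 of the 9 mice left out in turn. Hist1h1e overlaps Hist1h2be on the same strand, so reads between them could not be told apart. Hist1h4h, an H4 gene, was at 33.8, 47.7 and 45.7 CPM in NTB, 25.2, 30.7 and 30.7 in Veh and 24.1, 35.9 and 22.3 in BRQ mice. It was lower in Veh by -0.65 (SE 0.19, adjusted p = 0.0265, edgeR) and in BRQ by -0.68 (SE 0.18, adjusted p = 0.0227, edgeR), both against NTB, and the NTB and BRQ mice overlapped. Without NTB mouse 2, NTB mouse 3 or Veh mouse 1, 1 member was called in place of 3, and 659, 538 and 638 genes in place of 1169.

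**Figure D3:**
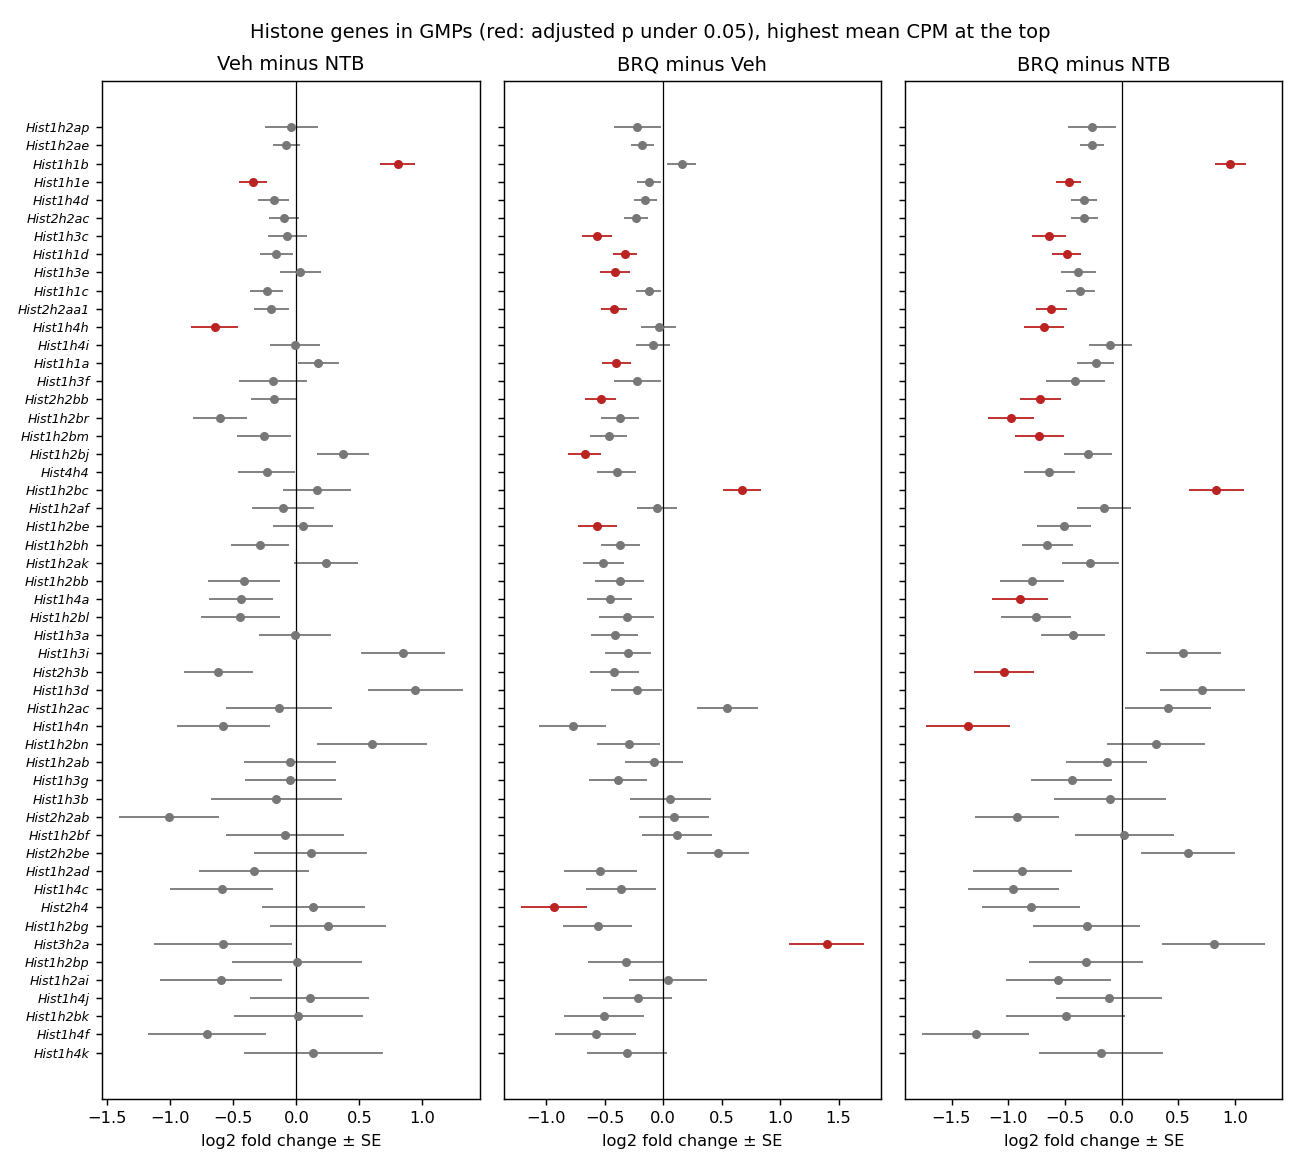
Log2 fold change (horizontal axis, bars are the SE) of each of the 52 tested members in GMPs (rows, highest mean CPM at the top) in the 3 comparisons (panels), with called members (adjusted p under 0.05, edgeR) in red. Hist1h1b was the only H1 gene above 0 in both comparisons with NTB, and 43 of 52 members were below 0 in each comparison of BRQ.

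Of the 52 members in GMPs, 9 fell (7 core and 2 linker histone genes) and 2 rose from Veh to BRQ-treated mice, against 13.4% of all genes called. The median over members was -0.32, against 0.00 over all genes, and 43 were below 0. The groups did not overlap for 12 members, against 30.7% of all genes, a count that takes no account of the pools. With the pool as a block, 19 fell and 2 rose, against 20.4% of all genes. The count of lower members depended on how mice were scaled and assigned. Scaled by library size alone, the median of all genes moved to 0.20, that of the members to -0.12, and 1 fell and 3 rose, with 2243 of 10331 genes called. With hashtag calls from tag ratios, none of 44 members fell and 2 rose, with 1142 of 9495 genes called. Without Veh mouse 3 or BRQ mouse 1, 5 members were called in place of 11, and 1019 and 972 genes in place of 1389.

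Among the core histones, Hist1h3c (an H3 gene) was at 59.96, 81.6 and 90.5 CPM in NTB, 66.7, 61.4 and 96.5 in Veh and 45.8, 57.0 and 51.5 in BRQ mice. Every BRQ mouse was below every mouse of the other groups. It fell by 0.57 from Veh to BRQ (SE 0.13, adjusted p = 0.00468, edgeR). The H2B gene Hist1h2bj, at 16.1, 19.4 and 17.5 CPM in Veh and 10.8, 12.02 and 9.40 in BRQ mice, fell by 0.67 (SE 0.14, adjusted p = 0.00262, edgeR). Its Veh and BRQ mice were fully apart, and 44.1% of its windows were unique. Hist2h2bb, another H2B gene, was at 20.5, 22.6 and 22.7 CPM in Veh and 12.4, 17.0 and 15.3 in BRQ mice and fell by 0.54 (adjusted p = 0.00858, edgeR). Hist2h2aa1, an H2A gene, was at 33.3, 36.4 and 37.9 CPM in Veh and 22.8, 29.5 and 27.1 in BRQ mice and fell by 0.42 (adjusted p = 0.0114, edgeR). Neither gene's groups overlapped. Hist2h4 (-0.94), Hist1h2be (-0.57), Hist1h3e (-0.41), Hist1h1a (-0.40) and Hist1h1d (-0.33) also fell, with adjusted p from 0.0269 to 0.0424 (edgeR). Each of these 5 calls was lost with at least 2 of the mice left out in turn.

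The members that rose from Veh to BRQ were both long-end genes with low levels. Of the 19 long-end members tested, however, 4 fell and 15 were below 0, beside 13.4% of all genes called. Hist1h2bc, an H2B gene, was at 7.63, 8.16 and 13.5 CPM in NTB, 11.6, 9.40 and 12.6 in Veh and 16.7, 23.5 and 16.01 in BRQ mice. All BRQ mice were above all others. The HSC/MPP, monocyte, basophil and dendritic markers given above were also higher in every BRQ mouse, and their part in this was not tested. It rose by 0.67 from Veh (SE 0.16, adjusted p = 0.00714, edgeR), under all 13 other settings, and with 8 of 9 mice left out in turn. Hist3h2a, an H2A gene of the small chromosome 11 cluster, was at 1.09, 4.39 and 1.44 CPM in NTB, 1.75, 1.25 and 1.36 in Veh and 3.28, 5.09 and 4.38 in BRQ mice. It rose by 1.40 from Veh (SE 0.32, adjusted p = 0.00468, edgeR), and held under all 11 settings that tested it. NTB mouse 2 lay among the BRQ mice, and BRQ did not differ from NTB past the threshold (0.81, adjusted p = 0.320, edgeR).

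Set against NTB, BRQ-treated mice had more Hist1h1b and Hist1h2bc and less of 11 members, the comparison in which the background was lowest. The 13 called of 52 compare with 6.01% of all genes called. The median over members was -0.39, against 0.00 over all genes, 43 were below 0, and the groups did not overlap for 21 members, against 25.9% of all genes. With the pool as a block, 18 fell and 2 rose, against 11.8% of all genes, and scaled by library size alone, 6 fell and 2 rose with a median over all genes of 0.16 and over the members of -0.23. Without NTB mouse 2 only 1 member was called, and without NTB mouse 1, NTB mouse 3, BRQ mouse 1 or BRQ mouse 3, 8 were. The genes called in all fell too, from 621 to 227 without NTB mouse 2 and to 328 to 526 without the others named. The comparison shares its mice with both others, so the lists of genes are not independent of each other.

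The H2B gene Hist1h2br gave 25.1, 25.1 and 24.6 CPM in NTB, 14.8, 15.7 and 19.2 in Veh and 10.7, 17.0 and 10.7 in BRQ mice. It was lower by -0.98 in BRQ than in NTB (SE 0.21, adjusted p = 0.00598, edgeR), while Veh against NTB gave -0.61 and missed the threshold (adjusted p = 0.0670, edgeR). Hist2h2aa1 (41.4, 40.8 and 39.96 CPM in NTB) was lower by -0.62, Hist2h2bb (28.3, 27.0 and 20.2) by -0.72 and Hist1h3c by -0.64. Hist1h4n was lower by -1.36, Hist2h3b by -1.04, Hist1h4a by -0.90, Hist1h2bm by -0.73 and Hist1h1d by -0.49. Adjusted p ran from 0.00728 to 0.0456 over these 8 genes (edgeR). The call of Hist1h2bm was kept under 5 of 13 other settings and with 2 of 9 mice left out in turn. That of Hist1h4n was kept with 4 of 9 mice left out, and those of Hist2h3b and Hist1h1d with 5. Of the windows of Hist2h3b, 20.7% were unique. Hist1h2bc was higher by 0.84 (adjusted p = 0.0409, edgeR), a call kept under 7 of 13 other settings.

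The 3 most captured core histone genes did not pass the test in any of these comparisons. Hist1h2ap was at 342, 371 and 535 CPM in NTB, 284, 344 and 596 in Veh and 257, 342 and 453 in BRQ mice, with mouse 3 the highest of each group. Hist1h2ae, the next H2A gene, was at 272, 286 and 247 CPM in NTB, 231, 250.7 and 281 in Veh and 206, 262 and 204 in BRQ mice. Hist1h4d, the leading H4 gene, was at 83.9, 99.1 and 95.8 CPM in NTB, 76.5, 86.5 and 88.7 in Veh and 64.6, 86.8 and 73.0 in BRQ mice. The groups overlapped for Hist1h2ap and Hist1h2ae throughout. Within every pool, Hist1h2ap was lower in the BRQ than in the Veh mouse. With the pool as a block, all 3 passed as lower in BRQ than in NTB, and Hist1h2ap and Hist1h2ae as lower in BRQ than in Veh.

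By type, the share of H1 in member UMIs was 25.9, 26.9 and 25.0% in NTB, 31.3, 30.2 and 25.7% in Veh and 33.5, 32.5 and 29.7% in BRQ mice. The BRQ mice were all above the NTB mice. Within H1, Hist1h1b took 25.5% ± 4.95 (SD, n = 3) in NTB, 42.6% ± 3.11 in Veh and 48.4% ± 4.75 in BRQ mice. Hist1h1e took 47.8% ± 2.78, 34.8% ± 3.48 and 32.4% ± 3.92. The leading captured H1 gene was thus Hist1h1e in every NTB mouse and Hist1h1b in every tumor-bearing mouse. Hist1h1d went from 11.6% to 9.58% and 7.72%, and Hist1h1c from 9.29% to 7.02% and 6.78%. These shares are tied to each other, since a rise of 1 gene lowers the others. Of the 24 tested short-end members, 23 were below 0 in BRQ against NTB and 7 fell, beside 6.01% of all genes called. Of the 19 long-end members 14 were below 0, 3 fell and 1 rose. Of the 9 with no annotated end 6 were below 0, 1 fell and 1 rose. In BRQ against Veh, beside 13.4% of all genes, 4 short-end and 4 long-end members fell and 2 long-end members rose. There 1 with no annotated end fell. In Veh against NTB (11.3%), 1 short-end and 1 long-end member fell and 1 with no annotated end rose. All 11 tested H4 genes were below 0 in both comparisons of BRQ, and 1 fell against Veh (beside 13.4% of all genes called) and 3 against NTB (beside 6.01%).

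GMPs were not made up alike in the groups, so the members were also tested within the GMP-like clusters, a choice made after the data were seen. Cells were clustered without the histone members. Cluster 1 (Alas1, Fkbp11, Cst7) held 4.55 to 11.9% of the GMPs in NTB mice, 16.4 to 22.1% in Veh and 32.6 to 70.1% in BRQ mice. Calls of cell cycle phase, made without histone genes, put at most 3.41% of the GMPs of any mouse in G1, and at most 6.61% once thinned to 5000 UMIs per cell.

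Hist1h1b was higher than in NTB within each of the GMP-like clusters. In cluster 0 (Vcam1, Lipg, Fcnb) the difference was 1.39 for Veh and 1.60 for BRQ, in cluster 1 it was 1.21 and 1.64, and in cluster 5 (Fkbp11, Ctsg, Sdf2l1) it was 1.16 and 1.31, with adjusted p from 4.218e-11 to 0.000107 (edgeR). In cluster 1, Hist1h1b was at 96.2, 64.5 and 124 CPM in NTB, 217, 208 and 257 in Veh and 261, 293 and 374 in BRQ mice. All BRQ mice were above all Veh mice there, and the rise from Veh to BRQ passed (0.44, adjusted p = 0.0363, edgeR), as that of Hist1h2bc did (1.04, adjusted p = 0.000961, edgeR).

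The other members gave different counts in different clusters. Of 46 tested in cluster 0, Veh against NTB called 4 higher and 2 lower (15.1% of all genes), BRQ against Veh 6 lower (7.6%) and BRQ against NTB 2 higher and 7 lower (5.98%). Of 45 in cluster 1, each comparison called 2 higher and none lower (12%, 12.3% and 5.78% of all genes), with 5, 5 and 8 members at an unadjusted p under 0.05. Of 35 in cluster 5, the calls were 1 higher and 1 lower, 2 lower, and 1 higher and 3 lower (11.6%, 4.65% and 3.86%). Hist1h3c was among those lower in BRQ than in Veh in clusters 0 and 5, and none of the 9 members lower in all GMPs was called lower in cluster 1. Whether the clusters differ in this was not tested. With equal numbers of GMPs from clusters 0, 1 and 5 in each mouse (12 to 507 cells), 27 members were tested. Of these, 2 were called in BRQ against Veh, with 888 of 7621 genes called, and 2 in BRQ against NTB, with 93 of 7621.

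In stem and multipotent progenitor-like cells (HSC/MPP-like, 8 mice, Veh mouse 2 left out with 15 cells), Hist1h1b showed the same order. It was at 94.1, 101 and 81.9 CPM in NTB, 178 and 219 in Veh and 161, 244 and 245 in BRQ mice. The groups with tumors lay wholly above NTB, by 1.10 for Veh (adjusted p = 8.864e-05, edgeR) and 1.25 for BRQ (adjusted p = 2.067e-06, edgeR). Hist1h2br was lower in Veh than in NTB (-1.19, adjusted p = 0.0216, edgeR). These were the only calls among 43 members, against 10.6% of all genes for Veh against NTB and 16.5% for BRQ against NTB. Without NTB mouse 1 the Veh against NTB count was 1, with 1031 of 10964 genes called in place of 1145 of 10793. Leaving out a Veh mouse left 1 in that group, and no count is given for it. BRQ against Veh called none, with 4 members at an unadjusted p under 0.05 and 0.0463% of all genes called.

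**Figure D4:**
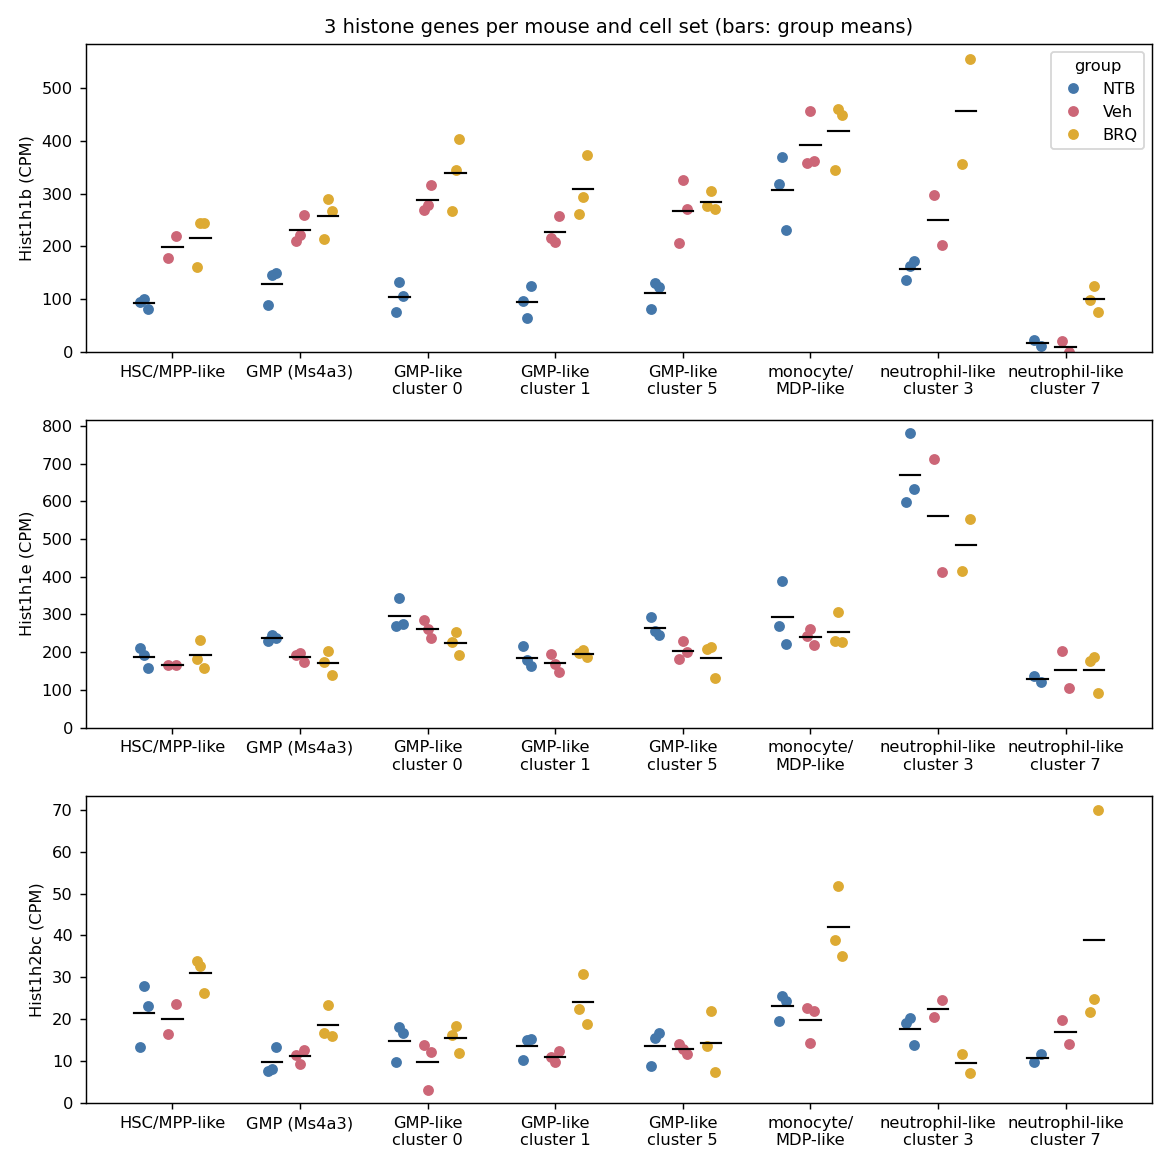
Levels of Hist1h1b, Hist1h1e and Hist1h2bc (panels, vertical axes in CPM scaled by trimmed means) in 8 cell sets (horizontal axis), with 1 point per mouse coloured by group and a bar at each group's mean. For Hist1h1b every NTB mouse lay below every tumor-bearing mouse in HSC/MPP-like cells, GMPs and GMP-like clusters 0, 1 and 5, and for Hist1h2bc every BRQ mouse lay above the others in monocyte-like cells.

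In monocyte-like cells (9 mice, 39 members tested), the calls fell on H2B genes. Hist1h2bc was at 19.7, 25.5 and 24.4 CPM in NTB, 22.7, 14.5 and 22.1 in Veh and 38.9, 51.8 and 35.1 in BRQ mice. Every BRQ mouse was above every other mouse, and the rise was 0.96 from Veh (SE 0.16, adjusted p = 0.000624, edgeR) and 0.80 from NTB (adjusted p = 0.0155, edgeR). Hist2h2be was higher in BRQ than in Veh too (1.24, adjusted p = 0.01002, edgeR), at 3.50, 2.41 and 3.52 against 8.06, 8.33 and 7.70 CPM. Hist1h2br was lower than in NTB in Veh (-0.83, adjusted p = 0.0366, edgeR) and in BRQ (-0.88, adjusted p = 0.0133, edgeR). The Veh call of Hist1h2br was lost without any of NTB mouse 2, NTB mouse 3, Veh mouse 1 or Veh mouse 2. Those fits called 104, 64, 128 and 99 genes in all, in place of 316. The BRQ against Veh count was 1 without Veh mouse 1, with 205 genes called in place of 503. The BRQ against NTB count was 1 without NTB mouse 1, 2 or 3, with 160, 93 and 145 genes called in place of 279. It was 3 without BRQ mouse 1 or 2, with 173 and 328 genes called. In all, 1 of 39 was called in Veh against NTB (3.36% of all genes), 2 in BRQ against Veh (5.36%) and 2 in BRQ against NTB (2.97%). Hist1h1b gave 0.35 for Veh (adjusted p = 0.173, edgeR) and 0.45 for BRQ against NTB (adjusted p = 0.0648, edgeR).

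In erythroid-like cells (7 mice, NTB mouse 1 and Veh mouse 2 left out with under 20 cells), none of 27 members was called by edgeR in Veh against NTB, BRQ against Veh or BRQ against NTB (1.03%, 0.134% and 0.413% of all genes), with 3, 2 and 3 members at an unadjusted p under 0.05. DESeq2 called none either. Hist1h1b was at 322 and 258 CPM in NTB, 350 and 310 in Veh and 366, 327 and 313 in BRQ mice. Its groups overlapped.

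Levels also differed between cell classes, given here without a test since classes share mice and libraries. The summed level of all members was 1790 CPM ± 225 (SD, n = 8 mice) in HSC/MPP-like cells, 1892 ± 233 (n = 9) in GMP-like, 2381 ± 374 (n = 9) in monocyte-like and 1874 ± 153 (n = 7) in erythroid-like cells. Macrophage-like cells had 992 ± 396 (n = 4 mice), lymphoid progenitor-like cells 1718 ± 739 and basophil, mast and eosinophil-like cells 1221 ± 369 (n = 3 mice each). Hist1h2ap was the most captured member in each of these 7 classes, and Hist1h3c and Hist1h4d led their types in them. Among the H2B genes, Hist1h2bc led in HSC/MPP-like, monocyte-like, macrophage-like and basophil, mast and eosinophil-like cells, and Hist2h2bb in the GMP-like, erythroid-like and lymphoid progenitor-like cells.

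The phase calls of HSC/MPP-like cells gave a clear order, since these cells included G1 calls. A call comes from scores on lists of S and G2/M genes and is not a measured phase. All members summed to 355 CPM ± 40.9 (n = 7 mice) in G1, 1157 ± 222 (n = 8) in S and 2854 ± 500 (n = 8) in G2/M, and the ranges over mice did not overlap. Thinned to 5000 UMIs per cell, they summed to 348, 949 and 2751 CPM. Hist1h2ap was at 14.97, 262 and 650 CPM in G1, S and G2/M, Hist1h1b at 5.52, 111 and 254, and Hist1h3c at 2.69, 37.4 and 124. These are the members with the steepest order among those named. Hist1h2bc did not follow it, with 30.6, 24.8 and 22.8 CPM, and Hist1h4i was at 19.4, 23.7 and 31.3 CPM. Long-end members held 72.7% ± 3.45 of member UMIs in G1, against 31.7% ± 2.42 in S and 32.0% ± 2.92 in G2/M, and 70.1%, 31.9% and 31.3% after thinning. Since the summed level was lowest in G1, this share does not show a higher level of long-end members there. A histone variant made throughout the cycle, H3f3b, was at 1222, 1156 and 1495 CPM. In GMPs, all members summed to 1624 ± 343 CPM in S and 1937 ± 238 in G2/M (n = 9 mice each).

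**Figure D5:**
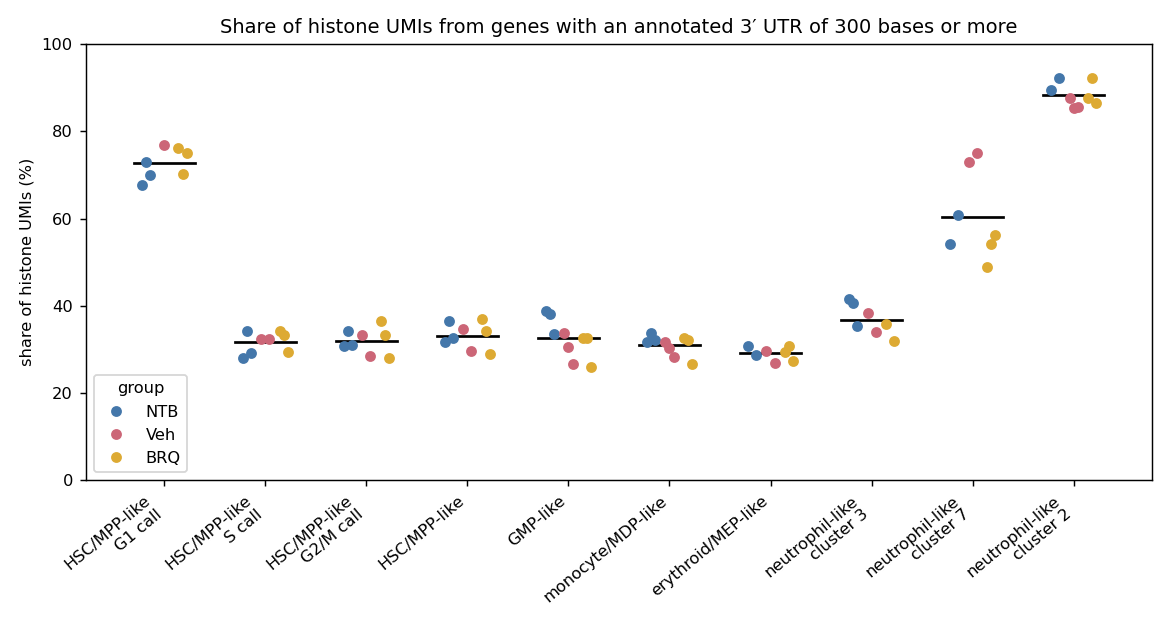
Share of member UMIs from long-end members (vertical axis, percent) by cell set (horizontal axis, phase calls of HSC/MPP-like cells first), with 1 point per mouse coloured by group and a bar at the mean over mice. Neutrophil cluster 2 averaged 88.3%, HSC/MPP-like cells called G1 72.7% and neutrophil cluster 7 60.4%, while HSC/MPP-like, GMP-like, monocyte-like and erythroid-like cells lay between 29.1% and 33.2%.

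Neutrophil-like cells fell into 3 clusters with different histone messages. Cluster 3 (Chil3, Ltf, Lcn2, Camp, Ngp) had the highest summed level in CPM of the sets plotted, at 3400 ± 535 (n = 7 mice). Cluster 7 (Mmp8, Mmp9, Ly6g) had 698 ± 270 (n = 7; 495 in NTB, 489 in Veh and 972 in BRQ, with every BRQ mouse above the others), and cluster 2 (Il1b, Cxcr2, Retnlg), with a median of 1564 UMIs per cell, had 1277 ± 313 (n = 8). In UMIs per cell the order was 26.8, 3.16 and 2.19 in clusters 3, 7 and 2, below 44.4 in monocyte-like and 35.4 in erythroid-like cells. Cluster 2 thus had few histone molecules per cell, and in CPM more than cluster 7.

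The genes behind these sums differed. In cluster 3, Hist1h2ap was at 781 CPM, Hist1h1e at 570, Hist1h2ae at 422 and Hist1h1b at 262. In cluster 2, Hist1h2ap was at 38.3, Hist1h1e at 141 and Hist1h1b at 16.2 CPM. The leading genes there were Hist1h2bc at 304 CPM ± 102 and Hist1h1c at 272 ± 66.4 (n = 8), against 16.2 and 118 in cluster 3. Hist1h4i followed at 151 against 31.3 CPM, and Hist1h2ac, the head-to-head neighbour of Hist1h2bc, at 63.6 against 11.9. All 4 are long-end genes, but so is Hist1h1e, which was lower in cluster 2 than in cluster 3. Long-end members held 88.3% ± 2.73 of member UMIs in cluster 2, 60.4% ± 9.96 in cluster 7 and 36.8% ± 3.49 in cluster 3. The summed level of all members was lower in cluster 2 than in cluster 3. The higher share thus does not show a higher level of long-end members. By type, H2B held 33.4% of member UMIs in cluster 2 and 6.51% in cluster 3, and H2A 12.7% and 42.8%. The variant H2afz was at 545 CPM in cluster 2 and 2925 in cluster 3, and H3f3b at 1801 and 1377. Free RNA was not removed and its part was not tested.

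Over all neutrophil-like cells, Veh against NTB called 4 members higher (Hist1h4i, Hist1h2be, Hist1h2ac and Hist1h2bc) and 18 lower of 33 (34.4% of all genes). BRQ against NTB called 3 higher and 13 lower (20.7%). The clusters behind these values were not the same, since NTB mice gave 896 of these cells in cluster 3 and 69 in cluster 2, Veh mice 87 and 771, and BRQ mice 179 and 644, counting mice with at least 20 cells. BRQ against Veh called none by edgeR (0.198% of all genes), with 4 members at an unadjusted p under 0.05, 1 called by DESeq2, and 2 and 7 called by edgeR without Veh mouse 1 and without BRQ mouse 3, where 276 of 7856 and 1038 of 7787 genes were called. Without Veh mouse 3, 13 members were called in Veh against NTB in place of 22, and 1377 of 7814 genes in place of 2608 of 7582.

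Within the clusters fewer members could be tested. In cluster 2, where NTB rested on 2 mice with 33 and 36 cells, none of 8 members was called by edgeR in Veh against NTB, BRQ against Veh or BRQ against NTB (0.459%, 1.33% and 0.204% of all genes), with 4, 0 and 3 at an unadjusted p under 0.05. The median over these members was 1.01 for Veh and 0.92 for BRQ against NTB. Members could pass the low-count filter through the groups where they were high, so this median does not describe the others. All members summed to 895.5 CPM in NTB, 1412 in Veh and 1397 in BRQ mice of this cluster. Hist1h2bc there was at 153 and 185 CPM in NTB, 356, 407 and 345 in Veh and 342, 488 and 324 in BRQ mice, with the NTB mice below all others. In cluster 3, none of 26 was called in Veh against NTB or in BRQ against Veh (0.614% and 0.186%), with 3 each at an unadjusted p under 0.05. BRQ against NTB there called Hist1h1b higher and Hist2h2aa1, Hist1h2ap, Hist1h2br, Hist1h4h and Hist1h3c lower (2.66%). Hist1h1b was at 137, 163 and 173 CPM in the NTB mice and 357 and 556 in the BRQ mice of this cluster, apart by 1.47 (adjusted p = 2.134e-08, edgeR). In cluster 7, none of 14 was called in Veh against NTB (2.62%, 2 at an unadjusted p under 0.05), 3 were higher in BRQ than in Veh (1.36%) and 6 higher than in NTB (4.89%). Hist1h1b there was at 23.0 and 11.8 CPM in NTB, 19.8 and 0 in Veh and 99.0, 125 and 76.4 in BRQ mice, with Hist1h2ap and Hist1h2ae also higher in both comparisons of BRQ. These clusters are ranges of maturing cells, and whether the cells of each group within a cluster stood at the same stage was not tested.

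Genes that make, process or carry histones were counted in GMPs as lists chosen for this family, beside the 11.3% of all genes called in Veh against NTB, 13.4% in BRQ against Veh and 6.01% in BRQ against NTB. None of 5 regulators of histone gene transcription (among them Npat) was called by edgeR in any comparison, and Npat was at 20.2 CPM in NTB, 21.6 in Veh and 24.0 in BRQ mice. Of 9 tested genes of 3' processing, Ncbp1 of the cap-binding complex was higher in Veh (0.48) and in BRQ (0.45) than in NTB, and Srrt, its partner, was lower in BRQ than in Veh (-0.35). Slbp, the stem-loop binding protein, was at 153, 171 and 169 CPM in NTB, Veh and BRQ mice and was not called. Of 5 tested genes of histone mRNA decay, the uridylyl transferase Tut4 was lower in Veh than in NTB (-0.53) and higher in BRQ than in Veh (0.42).

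Of 10 histone chaperones, Nasp was higher in Veh than in NTB (0.37) and lower in BRQ than in Veh (-0.31), Rbbp7 was higher in Veh (0.30) and the acetyltransferase Hat1 lower in BRQ than in Veh (-0.31). Of 11 histone variants outside the replication-dependent clusters, H1fx (-1.09) and H2afv (-0.38) were lower in Veh than in NTB. H1fx (1.196), H2afx (0.52) and H2afv (0.37) were higher and H1f0 (-0.55) lower in BRQ than in Veh, and H1f0 was lower in BRQ than in NTB (-0.67). Of 39 S phase genes, 1 rose in Veh against NTB (Rrm2), 1 rose and 2 fell in BRQ against Veh (Wdr76, Pcna and Gmnn) and none was called in BRQ against NTB. Of 51 G2/M genes, 1 fell, 2 rose and 2 fell, and 1 rose in the 3 comparisons. The medians of the S phase list were 0.04, -0.07 and -0.01, beside -0.10, -0.32 and -0.39 for the histone members. Adjusted p of the calls in these lists ran from 0.000456 to 0.0483 (edgeR).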

How the data were processed

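Marrow cells from 9 mice were captured in 3 pools by 10x 3' single-cell RNA-seq with hashtag antibodies. The authors aligned the reads to mm10 and counted UMIs per gene and barcode with Cell Ranger 6.0.0, and deposited these raw counts with the hashtag counts, and the sources used here name no annotation release. The pool and hashtag labels gave each mouse its group. The members and gene lists were chosen with earlier results of these data known.

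Hashtags were called with HTODemux (Seurat 5.3.0, quantile 0.99), and singlets with 500 to 7500 detected genes and at most 15% mitochondrial UMIs were kept. The study words the first limit as transcripts, and reading it as UMIs was an alternative. GMPs were cells with ln(1 + Ms4a3 per 10000) above 3, while the study set its limit on scaled values after regressing out the cell cycle. Cells were clustered in scanpy 1.11.5 (2000 variable genes, 30 components, 20 neighbours, Leiden resolution 0.8) without the members. Doublets beyond the hashtag calls and free RNA were not removed. Cell types were rebuilt here from marker genes and may differ from the study's.

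Counts were summed per mouse, scaled by trimmed means and tested with edgeR 4.0.16 (quasi-likelihood, all mice in 1 fit, no pool term), with p adjusted by Benjamini-Hochberg over all genes that passed the low-count filter. SE is the log2 fold change divided by the root of F. The test was checked on simulated counts. Mice with under 20 cells in a class or cluster were left out, but none was left out of the GMP alternatives, where the UMI reading left 8, 16 and 18 cells in 3 mice and equal clusters 12 in 1. Shares and class levels used library-size CPM. Samples of 1 pool shared a library: deviations of mice of the same pool correlated with a median r of 0.099 (9 pairs, -0.008 to 0.216), against -0.037 between pools (18 pairs), and the fit with the pool as a replicate block is given where it changes a count. The genes named were the 2 members of each type with the highest mean CPM in GMPs, every called member up to 10 per comparison by smallest adjusted p, and the leading members of each class; members beyond these were named after their values were seen. Alternatives were other hashtag calls, cell limits, scalings and filters, DESeq2 1.42.0, thinned or matched cells, and leaving out each mouse. Other tools were Python 3.11.15 and R 4.3.3. Precision is limited by 88 to 1017 GMPs per mouse.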

Additional observations from a re-analysis of the deposited data

Results flagged for a closer look

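In 5 cases the groups' mice did not overlap for a named member in GMPs, and did not overlap in the opposite direction in another cell class, under the same comparison. The erythroid-like cells had 2 NTB, 2 Veh and 3 BRQ mice. For Veh against NTB, groups did not overlap for 28.4% of all genes in GMPs and 36.9% in HSC/MPP-like cells. In neutrophil-like and erythroid-like cells it was 50% and 38.3%. For BRQ against NTB it was 25.9% in GMPs and 25.1% in erythroid-like cells. The neutrophil-like cells of NTB and Veh mice also came from different clusters. The difference between the cell classes was not tested in any of these cases. Hist1h2bj was at 0.37 for Veh against NTB in GMPs, -0.40 in HSC/MPP-like cells and -1.60 in neutrophil-like cells. Hist1h1e was at -0.34 for Veh against NTB in GMPs and 0.27 in erythroid-like cells. For BRQ against NTB, Hist1h1d was at -0.49 in GMPs and 0.31 in erythroid-like cells, and Hist1h1a at -0.23 and 0.58.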

How the results depend on the processing

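Of 295 values that answer a comparison, recomputed under other settings, 234 stayed within the limits of the main value and 61 moved. Of 593 recomputed values of named members, 428 kept their call, 165 kept their direction and lost it, and 0 reversed. The GMP count for Veh against NTB, 3, was 0 with 500 and 7500 read as UMIs (0 of 3229 genes called), 8 with an Ms4a3 limit of 2.5 (2509 of 11117 genes called), 10 in GMP-like clusters (2644 of 10972) and 5 with no low-count filter. For BRQ against Veh, 11 became 2 with tag ratios, 0 with UMIs (7 members tested, 0 genes called), 6 with an Ms4a3 limit of 2.5, 4 by library size alone, 6 with DESeq2 (947 genes called in all), 21 with the pool as a replicate block, 7 with equal phases (1075 of 9935), 6 of 33 thinned (635 of 8286) and 2 with equal clusters. For BRQ against NTB, 13 became 8 with tag ratios (820 of 9495), 1 with UMIs (2 of 3229), 8 by library size alone (1319 of 10331), 20 with the block, 6 thinned (280 of 8286) and 2 with equal clusters. The summed difference was -0.48 for BRQ against Veh and -0.46 against NTB with UMIs.

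In HSC/MPP-like cells the Veh against NTB count, 2 (1145 of 10793 genes called), was 1 with tag ratios (1243 of 9746) and with DESeq2 (653 of 10793). In monocyte-like cells, 1 became 0 with tag ratios and DESeq2 (Veh against NTB), 2 became 1 with DESeq2 (BRQ against Veh) and 2 became 1 with tag ratios (BRQ against NTB). In erythroid-like cells tag ratios left the BRQ and Veh arms with 1 mouse each, so no count is given for them. In neutrophil-like cells, for BRQ against Veh, 0 became 1 with the block (222 of 7582 genes called) and with DESeq2 (44 of 7582). In UMIs per cell in place of CPM, the log2 difference of the summed level from HSC/MPP-like cells was 1.04 in monocyte-like, 0.74 in erythroid-like, -2.52 in macrophage-like, -1.27 in lymphoid progenitor-like and -2.50 in basophil, mast and eosinophil-like cells, and 0.33, -2.88 and -3.32 in neutrophil clusters 3, 7 and 2. The causes were not tested, other than fewer cells under the UMI reading.

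With each mouse left out, GMP counts ran from 1 to 4, 5 to 14 and 1 to 19 in the 3 comparisons. The genes called in all ran from 538 to 1500, 699 to 1477 and 227 to 775. Summed differences ran from -0.15 to 0.04, -0.26 to -0.06 and -0.29 to -0.12. Counts ran from 1 to 2, 0 to 0 and 1 to 1 in HSC/MPP-like cells, with 523 to 1247, 3 to 26 and 856 to 1600 genes called in all. Fits that left 1 Veh mouse there are not in these ranges. In monocyte-like cells they ran from 0 to 1, 1 to 2 and 1 to 3, with 64 to 405, 205 to 539 and 93 to 328 genes. In neutrophil-like cells they ran from 13 to 30, 0 to 7 and 11 to 20, with 1377 to 3263, 0 to 1038 and 699 to 1840 genes.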
